A study of Homo sapiens with 4 samples.

Results

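The genes described here are 9 that control passage through G1, namely CDKN2A, CDKN2B, CDKN1B, CDKN1C, CCND1, CDK4, CDK6, RB1 and E2F1, and MTAP, the neighbour of CDKN2A and CDKN2B at 9p21. The regions described are the rows of the deposited lists that overlapped 1 of the 10 given hg19 gene spans, widened by 5 kb on each side. They numbered 10 of 11604 regions for 53BP1, 70 of 62530 for Pol II S5p and 34 of 54600 for Pol II S2p. The ChIP-seq libraries came from MCF10A, an established line of breast epithelial cells that do not form tumours, grown normally with no treatment. They were made against 53BP1, which binds chromatin around DNA breaks, and against RNA polymerase II (Pol II) carrying phosphate on serine 5 (S5p, found near gene starts) or serine 2 (S2p, found on elongating Pol II). Each of the 3 ChIPs had 1 library, so no spread between replicates was available. MCF10A is known to have lost CDKN2A through a deletion at 9p21. The input was not analysed here and DNA copy number was not measured, so a missing locus and a locus without detected Pol II cannot be told apart.

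Cells leave G1 when cyclin D1, the product of CCND1, activates the kinases CDK4 and CDK6. These kinases phosphorylate the RB1 protein, which then releases E2F transcription factors such as E2F1, and S-phase genes are transcribed. The INK4 inhibitors encoded by CDKN2A and CDKN2B block CDK4 and CDK6, while p27 and p57, encoded by CDKN1B and CDKN1C, act on a wider range of cyclin-kinase complexes. MTAP, a metabolic enzyme of methionine salvage, is the neighbour of CDKN2A and is often deleted together with it in tumours.

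Regions of all 3 lists were found at CCND1, CDK4, CDK6, RB1, CDKN1B and E2F1. MTAP had S5p regions alone, and CDKN2A, CDKN2B and CDKN1C had no region in any list. S5p lay at the annotated start (the region within 1 kb of the 5′ end of the span) of 6 genes, S2p of 5 and 53BP1 of 4. With a window of 2.5 kb, 53BP1 lay at the start of 5 genes, CDK6 being added. The authors' fold enrichment over background ranks regions within a list and was not compared between lists. A fold percentile of 100 therefore marks the strongest region of its own list. The strongest S5p region exceeded the 80th percentile in all 7 genes with S5p, the strongest S2p region in 5 of 6 genes, and the strongest 53BP1 region in 3 of 6. These are maxima over up to 48 regions a gene. Of all regions of these genes, 9 of 70 for S5p (12.9%), 9 of 34 for S2p (26.5%) and 3 of 10 for 53BP1 were above the 80th percentile, which 20% of each whole list exceeds. Their median fold was 3.46 for S5p, 3.6 for S2p and 5.01 for 53BP1, against 3.76, 3.58 and 6.02 in the whole lists. The counted region farthest from its span was an S5p region 4942 bp from E2F1 (fold 31.0), and the nearest one left out was an S5p region 6871 bp from CDKN1C (fold 13.9).

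**Figure D1:**
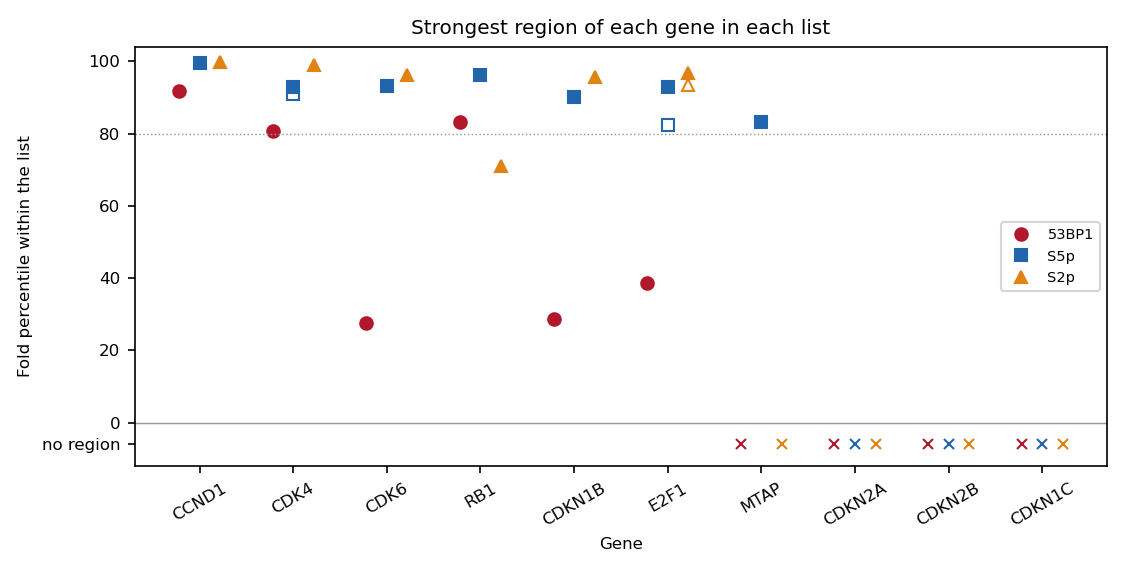
Fold percentile within its own list (y axis) of the strongest region of each gene (x axis) for 53BP1 (circles), Pol II S5p (squares) and Pol II S2p (triangles), 1 library each. Crosses mark genes without a region, the dotted line the 80th percentile, and open symbols the strongest region with its summit inside the widened span where that differs by more than 1 percentile. CCND1 stands at the top in all 3 lists, whereas CDKN2A, CDKN2B and CDKN1C carry crosses only.

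The sequences before the starts are shown for 4 genes with S5p at the start and for MTAP and CDKN2B, which had none there. They are the 250 bases before the RefSeq start on GRCh38.p14, 5′ to 3′ on the gene's strand, and were not read from the hg19 regions. Promoter rows not printed are those of RB1, CDKN2A and the downstream of 2 CDK6 starts. The only RB1 row (chr13:48476200-48476449, 36.8% GC) does not lie at the start of the RB1 span, so its motifs say nothing about that start. The CDK6 row printed is the upstream one. Whether distances at CDK6 are counted from this start was not determined. CDK4 lies at chr12:57752311-57752560 (minus strand), CDK6 at chr7:92836574-92836823 (minus) and CDKN1B at chr12:12717118-12717367 (plus). E2F1 lies at chr20:33686386-33686635 (minus), MTAP at chr9:21802386-21802635 (plus) and CDKN2B at chr9:22009306-22009555 (minus). Capitals mark matches on either strand to the TATA box TATAAA, the CCAAT box CCAAT, the GC box GGGCGG, the E-box CACGTG and the E2F site TTTNGCGC. No base lay in more than 1 match.
CDK4: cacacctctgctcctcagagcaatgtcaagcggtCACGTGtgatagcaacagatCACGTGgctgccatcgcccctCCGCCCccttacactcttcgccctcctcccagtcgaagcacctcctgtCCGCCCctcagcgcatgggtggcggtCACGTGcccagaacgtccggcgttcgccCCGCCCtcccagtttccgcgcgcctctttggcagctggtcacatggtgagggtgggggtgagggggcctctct
CDK6: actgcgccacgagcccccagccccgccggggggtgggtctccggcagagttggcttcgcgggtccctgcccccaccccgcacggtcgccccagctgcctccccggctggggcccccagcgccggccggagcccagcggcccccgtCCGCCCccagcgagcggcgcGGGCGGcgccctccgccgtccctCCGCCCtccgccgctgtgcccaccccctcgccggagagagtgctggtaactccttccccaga
CDKN1B: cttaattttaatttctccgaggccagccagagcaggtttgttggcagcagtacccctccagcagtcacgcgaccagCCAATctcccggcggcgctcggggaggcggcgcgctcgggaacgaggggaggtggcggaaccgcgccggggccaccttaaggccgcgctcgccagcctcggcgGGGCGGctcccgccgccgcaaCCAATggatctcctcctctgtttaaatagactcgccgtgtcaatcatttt
E2F1: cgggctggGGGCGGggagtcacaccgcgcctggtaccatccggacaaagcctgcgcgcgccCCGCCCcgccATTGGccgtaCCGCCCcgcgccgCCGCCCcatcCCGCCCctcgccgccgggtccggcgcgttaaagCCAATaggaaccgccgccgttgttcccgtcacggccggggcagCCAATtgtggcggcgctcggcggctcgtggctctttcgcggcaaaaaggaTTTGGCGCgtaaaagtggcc
MTAP: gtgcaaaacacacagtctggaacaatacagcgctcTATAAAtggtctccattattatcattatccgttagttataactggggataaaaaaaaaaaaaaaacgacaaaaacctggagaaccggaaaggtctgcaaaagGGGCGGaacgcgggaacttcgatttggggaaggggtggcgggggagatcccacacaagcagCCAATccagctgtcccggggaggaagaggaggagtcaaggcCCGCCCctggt
CDKN2B: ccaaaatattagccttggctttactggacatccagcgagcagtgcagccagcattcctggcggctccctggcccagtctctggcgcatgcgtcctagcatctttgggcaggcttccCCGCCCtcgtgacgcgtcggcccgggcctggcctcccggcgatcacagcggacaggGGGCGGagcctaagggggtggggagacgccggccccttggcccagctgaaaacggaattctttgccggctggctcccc

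CDK4 held 3 E-boxes, 216, 196 and 101 bases before the start, where 6.34% of all 35116 RefSeq windows of this length hold any. For the E2F site, only the form TTTNGCGC was searched for, and looser forms were not. E2F1 held the only match to it in the 10 windows, 20 bases before its start, against 1.51% of all windows. It also held 5 GC boxes and 3 CCAAT boxes. GC boxes were present in 42.6% of all windows and in 7 of the 10 windows of these genes. Those of 1 of 2 CDKN2A starts and the downstream CDK6 start had none. The RB1 window, which is not at the start of the RB1 span, had none either. CCAAT boxes were present in 32.0% of all windows and in those of CDKN1B, E2F1 and MTAP, and TATA boxes in 10.7% and in that of MTAP. The p53 element, with a spacer of up to 13 bases, was found in 0.0256% of all windows and in 0 of these 10. These are matches of letters only and say nothing about a bound factor.

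CCND1 (chromosome 11, 69455873 to 69469242, plus strand) carried the strongest regions of the set. Its whole span of 13370 bp lay inside 1 S5p region of 18960 bp (fold 90.1, 99.5th percentile) and 1 S2p region of 19331 bp (fold 86.8, 99.8th percentile). The S5p summit was 89 bp past the start, while the S2p summit was 13801 bp past the start, which is 432 bp beyond the 3′ end. Both forms of Pol II thus covered the gene, with their maxima at opposite ends. A further S2p region (fold 26.1) began downstream, with its summit 27279 bp from the start.

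53BP1 had 3 regions at CCND1. The strongest, at 69455687 to 69456165 (fold 11.7, 91.9th percentile), held the start, and its summit lay 9 bp from the S5p summit and 13721 bp from the S2p summit. The others, with summits at −1952 and +6117 bp from the start, had folds of 3.55 and 4.37, at the 6.33rd and 21.4th percentiles. The start region alone was in the upper part of the 53BP1 list.

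CDK4 (chromosome 12, 58141510 to 58146230, minus strand), a short gene encoding a cyclin D-dependent kinase, was also covered from end to end. The S5p region was 8292 bp wide (fold 26.2, 91.0th percentile) with its summit 168 bp past the start. The S2p region was 8311 bp wide (fold 40.8, 98.9th percentile) with its summit 6761 bp past the start, beyond the 3′ end. The GRCh38 table lists TSPAN31, a tetraspanin gene, as overlapping CDK4. Pol II there may belong to either gene or to both, and was not divided between them.

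The 53BP1 list had 2 CDK4 regions of similar rank. One, at 58145621 to 58146441, held the start (fold 8.52, 77.0th percentile), with its summit 90 bp from the S5p summit. The other, at 58138383 to 58140165, lay past the 3′ end of CDK4 (fold 9.06, 80.7th percentile), with its summit 7207 bp from the S5p summit and 614 bp from the S2p summit. Upstream of CDK4, wide S5p (fold 31.7) and S2p (fold 44.8) regions reached into the widened span, but their summits were at −19587 and −14410 bp from the start.

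**Figure D2:**
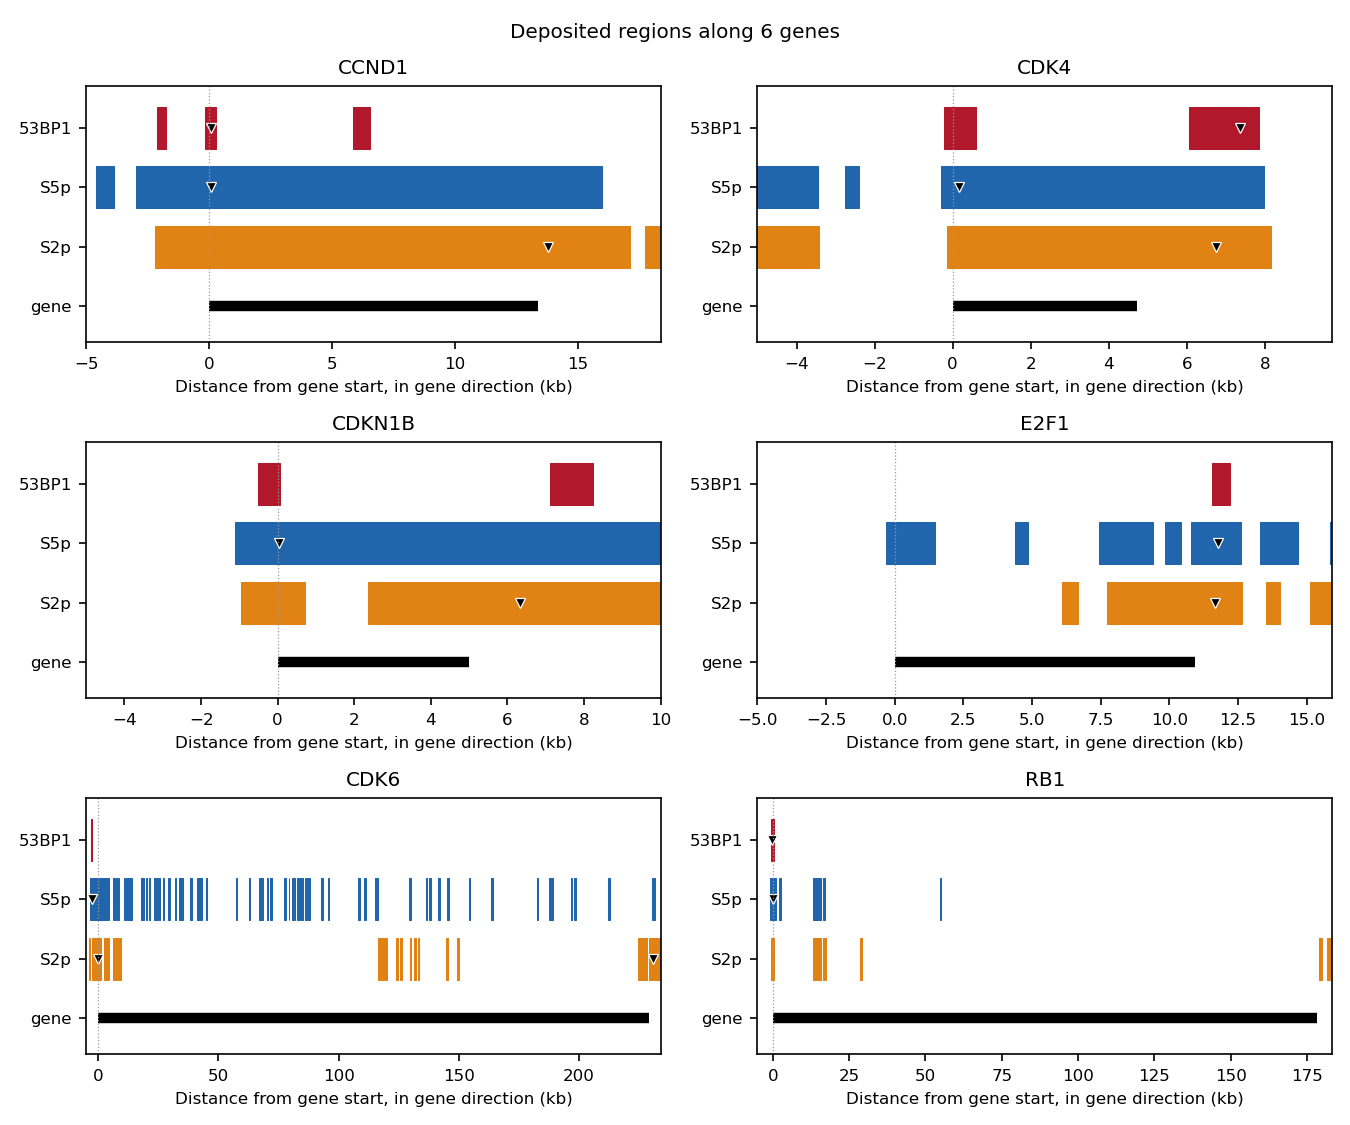
Regions of 53BP1, Pol II S5p and Pol II S2p (coloured bars) along 6 genes, by distance from the gene start in kb in the direction of transcription. The black bar is the gene span, triangles mark summits of regions above the 80th percentile of their list, and bars are clipped at 5 kb outside the span. S5p summits stand at the start of CCND1, CDK4, CDKN1B and RB1, whereas S2p summits of CCND1, CDK4 and CDKN1B lie past the 3′ end.

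CDK6 (chromosome 7, 92234235 to 92463231, minus strand), the second cyclin D-dependent kinase gene, held 48 of the 70 S5p regions and 18 of the 34 S2p regions. Its strongest S5p region, at 92458650 to 92466835 (fold 32.4, 93.3rd percentile), held the start, but its summit was upstream, at −2528 bp. The 1 53BP1 region of CDK6, at 92465694 to 92466066 (fold 4.67, 27.5th percentile), also lay upstream, 2463 bp from the start at its nearest base and 96 bp from the S5p summit by its own summit. By contrast, the strongest S2p summit (fold 18.9, 96.2nd percentile) was 87 bp past the start. The GRCh38 promoter table lists 2 CDK6 starts that are 2614 bp apart, and the given span begins at 1 start only. Positions were not converted between builds, so which of the 2 it is was not determined. If it is the downstream start, the other lies 2614 bp upstream. The S5p and 53BP1 summits, at −2528 and −2624 bp, would then be close to that other start. The GRCh38 table also lists LOC112268009, RNU6-10P and CDK6-AS1 as overlapping CDK6. These entries were not placed on hg19, so the Pol II regions of CDK6 were not divided among them.

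The remaining S5p regions of CDK6 were weak and thinned out along the gene. The median S5p fold over the 48 regions was 3.37, against 3.76 in the whole S5p list, and 19 of them reached a −log10 q-value of 5. With the span divided into 5 equal parts from the start, S5p covered 45.2%, 22.8%, 10.3%, 7.17% and 7.37% of bases, with 17, 12, 7, 6 and 4 summits. The S2p regions were arranged otherwise, with 11.7%, 0%, 15.8%, 2.70% and 8.20% of bases covered. A stretch of 106822 bp (92346806 to 92453627) had no S2p region, although S5p regions continued through it. At the far end, an S2p region of 8838 bp with fold 9.17 (89.8th percentile) had its summit 230984 bp from the start, past the 3′ end.

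RB1 (chromosome 13, 48877883 to 49056026, plus strand), which encodes the retinoblastoma protein, had its strongest S5p region, but not its strongest S2p region, at the start. The S5p region there, at 48876894 to 48878787, was compact (1894 bp) and strong (fold 44.7, 96.3rd percentile), with its summit at −82 bp. It held the 1 53BP1 region of RB1, at 48877391 to 48878159 (fold 9.46, 83.3rd percentile), whose summit was 111 bp from the S5p summit. S2p was present at the start of RB1 too but ranked low (fold 3.12, 35th percentile), and the 53BP1 summit was 36 bp from its summit.

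Inside RB1, S5p had 4 weaker regions with folds of 2.15 to 4.59. The strongest S2p region of the gene, at 48891076 to 48893753 (fold 4.68, 71.0th percentile), had its summit 15555 bp from the start. From 48932911 to the 3′ end, 123116 bp or 69.1% of the span had no region in any list. Past the 3′ end, 2 S2p regions had folds of 2.57 and 2.84. The GRCh38 table lists PPP1R26P1, PCNPP5, LOC112268118 and LPAR6, a receptor gene, as overlapping RB1, and ChIP regions carry no strand. These entries were not placed on hg19, so the Pol II regions inside RB1 were not divided among them. RB1 and CDK6, both long genes, thus differed in S5p coverage of the span (2.69% and 18.6%) while their start regions had S5p folds of 44.7 and 32.4.

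**Figure D3:**
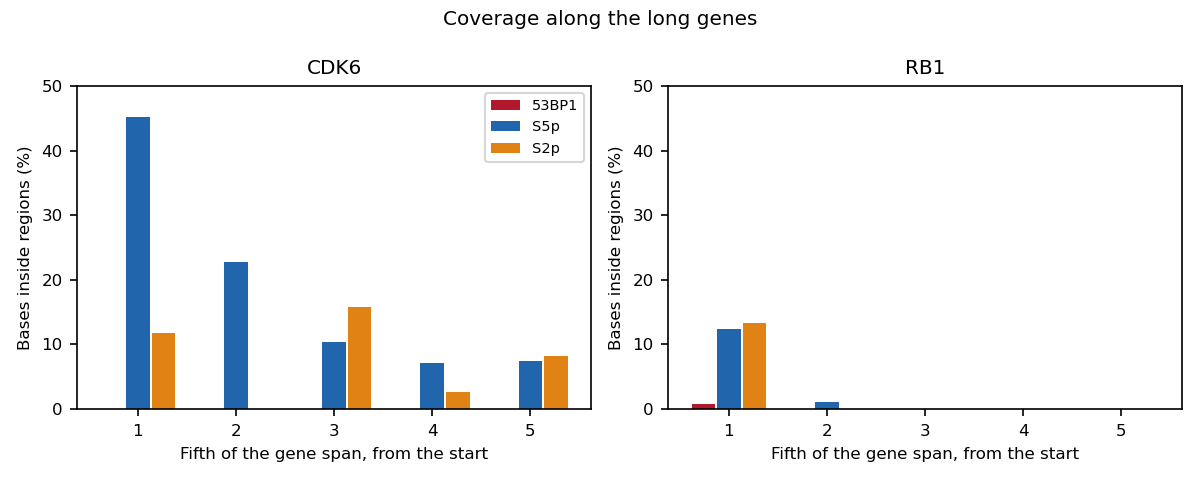
Percentage of bases inside regions (y axis) in 5 equal parts of the CDK6 and RB1 spans, numbered from the gene start (x axis), for each list. S5p coverage of CDK6 goes from 45.2% in the first part to 7.37% in the last, and RB1 has no region beyond the second part.

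CDKN1B (chromosome 12, 12870302 to 12875305, plus strand), which encodes the kinase inhibitor p27, lay wholly inside an S5p region of 11713 bp (fold 24, 90.1st percentile) with its summit 47 bp past the start. S2p covered 66.9% of the span in 2 regions. The weaker (fold 2.93, 26.7th percentile) held the start, and the stronger (fold 16.9, 95.6th percentile) had its summit 6342 bp past the start, which is 1339 bp beyond the 3′ end. As at CCND1 and at CDK4 (which TSPAN31 overlaps), the S5p maximum was at the start and the S2p maximum past the end.

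53BP1 was low in its list at CDKN1B. The region that held the start, at 12869794 to 12870351, had a fold of 4.03 (14th percentile) and a summit 282 bp from the S5p summit. The other, at 12877409 to 12878535, had a fold of 4.74 (28.8th percentile) and lay 2900 bp past the 3′ end by summit. Neither reached a −log10 q-value of 5.

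CDKN1C (chromosome 11, 2904448 to 2906995, minus strand), the imprinted gene for the inhibitor p57, had no region. The nearest S5p region, at 2913866 to 2914824 (fold 13.9), was 6871 bp from the span, and the nearest S2p region (fold 3.62) was 16396 bp away. The nearest 53BP1 region was 43286 bp away, at 2950281 to 2950804 (fold 7.06). The 2 genes of the CIP/KIP inhibitor family that are in this set therefore stood apart in these lists, CDKN1B fully inside S5p and CDKN1C outside every region.

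E2F1 (chromosome 20, 32263292 to 32274210, minus strand) had a weak start and stronger regions past its 3′ end. The S5p region at the start, at 32272748 to 32274515, had a fold of 5.29 (69.8th percentile), the lowest of the 6 genes with S5p at the start. It met neither S2p nor 53BP1. In the S5p list, 2.46% of the 1262 regions within 1 percentile of this rank met 53BP1. The nearest S2p region to the start was 6097 bp away.

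Past the 3′ end of E2F1, an S5p region at 32261600 to 32263429 (fold 10.3, 82.3rd percentile) and an S2p region at 32261556 to 32266490 (fold 12.7, 93.5th percentile) ran into the last part of the gene. The 53BP1 region assigned to E2F1, at 32262019 to 32262666 (fold 5.29, 38.7th percentile), lay there, 11544 bp from the start at its nearest base. The neighbour on this side is NECAB3 in the GRCh38 table, and the lists do not say to which gene this Pol II belongs. Still further out, S5p (fold 31.0) and S2p (fold 21.1) regions met the edge of the widened span, with summits 19422 and 18580 bp from the E2F1 start. These outer regions set the S5p and S2p values of E2F1 when every overlapping region is counted.

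At 9p21 (chromosome 9), MTAP (21802635 to 21865969, plus strand) had 4 S5p regions and no S2p or 53BP1 region. None was at the start: the nearest, at 21832078 to 21832992 (fold 4.0), was 29443 bp into the gene. It was followed by regions at 21834023 to 21834393 (fold 3.58) and 21836331 to 21837532 (fold 5.46). The strongest, at 21853963 to 21855832 (fold 11.1, 83.1st percentile), had its summit 52922 bp from the start. It was the 1 S5p region above the 80th percentile among the members that did not meet 53BP1. Of the 1253 S5p regions within 1 percentile of its rank, 31.4% met 53BP1, so a region without 53BP1 was the more frequent case at this strength.

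CDKN2A (21967751 to 21994490, minus strand), which encodes p16 and ARF, and CDKN2B (22002902 to 22009312, minus strand), which encodes p15, had no region. They lay inside a stretch from 21855833 to 22208838, 353006 bp long, without a region of any list. The S2p stretch around these genes was longer (21559647 to 22446656, 887010 bp) and the 53BP1 stretch longer still (21559927 to 26747032, 5187106 bp). Of the stretches between neighbouring S5p regions, 1519 of 62507 (2.43%) were at least as long as that at CDKN2A and CDKN2B, 65 of them on chromosome 9. The corresponding numbers were 629 of 54577 (1.15%) for S2p and 41 of 11581 (0.354%) for 53BP1. Stretches that span centromeres or assembly gaps were not left out of these counts. Most stretches were far shorter, with medians of 2570, 1862 and 64551 bp for S5p, S2p and 53BP1. A stretch picked because it holds given genes tends to be long, so these shares do not measure how unusual it is.

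The flanks of the 9p21 genes were unequal. In the 500 kb before the MTAP start there were 31 S5p, 24 S2p and 2 53BP1 summits, with folds up to 26.4, 14.8 and 5.66. In the 206678 bp from the MTAP start to the end of the CDKN2B span there were 4, 0 and 0. In the 500 kb beyond CDKN2B there were 4, 1 and 0, and the strongest S5p region there, at 22237831 to 22240931, had a fold of 8.10. Lists of enriched regions give no value where nothing was called, so Pol II and 53BP1 at CDKN2A and CDKN2B were not detected at an unknown depth and were not shown to be absent.

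**Figure D4:**
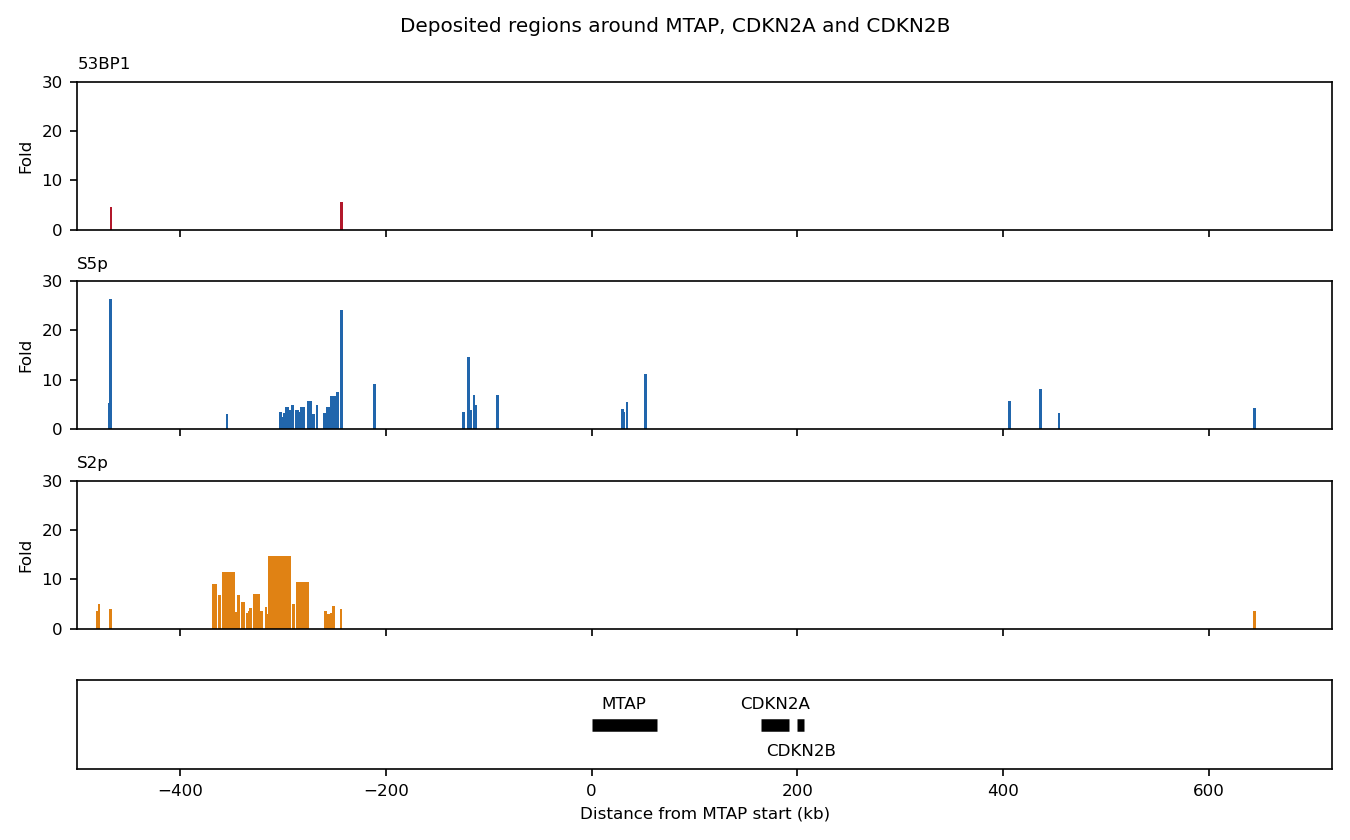
Authors' fold enrichment (y axis) of 53BP1, Pol II S5p and Pol II S2p regions by distance from the MTAP start in kb (x axis), with the 3 gene spans below. Regions narrower than 2.5 kb are drawn 2.5 kb wide. S5p has 4 regions inside MTAP, with folds of 3.58 to 11.1, and no list has a region at CDKN2A or CDKN2B.

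Across the members, every 53BP1 region lay on both forms of Pol II: 10 of 10 met S5p and 10 of 10 met S2p (each with an exact Clopper-Pearson 95% interval from 69.2%), against 97.6% and 78.9% of the whole 53BP1 list. From the side of S5p, 8 of 70 regions met 53BP1 (11.4%, 5.07 to 21.3), against 15.2% of all S5p regions. Any 53BP1 region of the whole list counts here. The upstream CDK4 region (fold 31.7) and the outer E2F1 region (fold 31.0) met only 53BP1 regions beyond the widened spans. Without CDK6, which held 48 of the 70, the share was 7 of 22 (31.8%, 13.9 to 54.9), so its side of the list's value depends on that gene. Those 8 were all among the 9 regions of these genes above the 80th percentile of S5p fold (88.9%, 51.8 to 99.7), a class in which 71.4% of the whole list met 53BP1. Of the other 61, 0 met 53BP1 (which allows up to 5.87%, exact), against 1.15% of the whole list. These intervals cover counting error only, with regions taken as independent, although those of 1 gene share their locus. The shares of the whole list lay inside the intervals of these genes in both classes.

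S2p lay on a minority of the S5p regions. Of the 70 S5p regions, 19 met S2p (27.1%, exact interval 17.2 to 39.1), against 60.2% of the S5p list. CDK6 held most of the regions behind this share: without it, 12 of 22 S5p regions met S2p (54.5%, 32.2 to 75.6). Of the 34 S2p regions, 21 met S5p (61.8%, 43.6 to 77.8), against 54.9% of the S2p list, and 10 met 53BP1 (29.4%, 15.1 to 47.5), against 13.9%. The downstream CCND1 (fold 26.1), upstream CDK4 (fold 44.8) and outer E2F1 (fold 21.1) S2p regions met 53BP1 only beyond the widened spans. Whether these shares differ from the list was not tested.

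For each of the 6 genes with 53BP1, the 53BP1 region closest by summit to the S5p region it met was picked. These summits were apart by 9 bp (CCND1), 90 bp (CDK4), 96 bp (CDK6), 111 bp (RB1), 282 bp (CDKN1B) and 285 bp (E2F1). All but that of CCND1 exceeded 79 bp, the median over the whole 53BP1 list. The other 4 53BP1 summits were 2041 to 7856 bp from the S5p summit. The distance to the S2p summit went from 36 bp, at RB1, to 15753 bp. Over all 10 the medians were 283.5 bp to S5p and 2136 bp to S2p, against 79 and 194 bp in the whole 53BP1 list. Wide Pol II regions, such as those of CCND1 at 18960 and 19331 bp, allow larger distances, and the part of width in these medians was not tested.

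By rank of the S5p region at the start, the order was CCND1, RB1, CDK6, CDK4, CDKN1B and E2F1, from the 99.5th to the 69.8th percentile. The 53BP1 regions at or near the same starts ran CCND1, RB1, CDK4, CDK6 and CDKN1B, from the 91.9th to the 14th percentile, with none at E2F1. With 1 library each, no spread is known for these ranks, and neighbours such as CDK4 and CDKN1B in S5p (91.0th and 90.1st) cannot be placed in order. The S2p regions that reached the start gave another order. CCND1, CDK4 and CDK6 were above the 96th percentile, RB1 was at the 35th and CDKN1B at the 26.7th. For CCND1 and CDK4 the summits of these regions lay 13801 and 6761 bp past the start, beyond the 3′ end. At CDKN1B the stronger S2p region (95.6th percentile) was a separate one that did not reach the start. This order therefore does not rank S2p at the starts themselves.

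**Figure D5:**
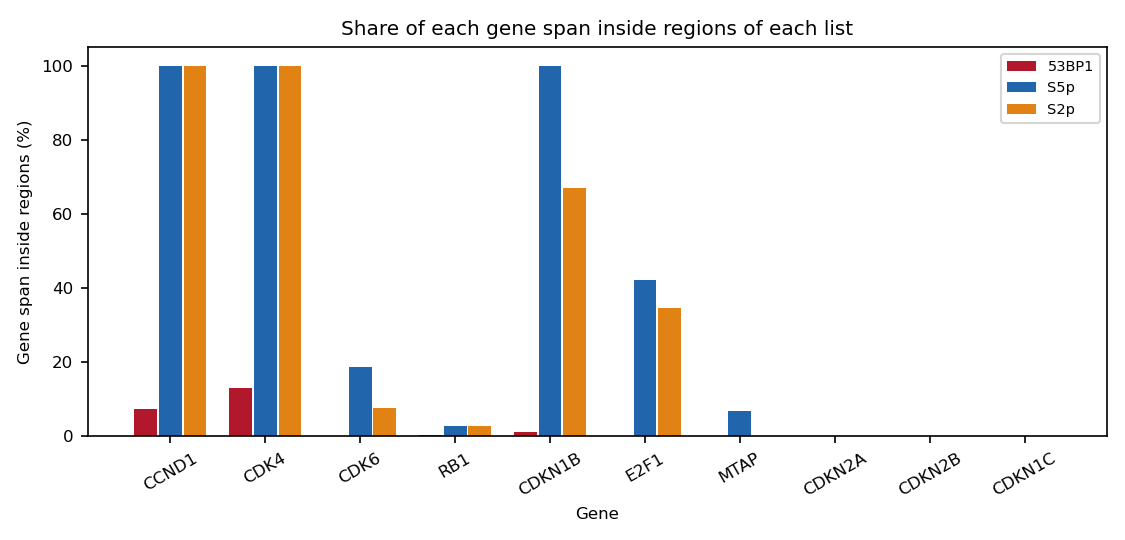
Percentage of each gene span inside regions (y axis) for 53BP1, Pol II S5p and Pol II S2p, 1 library each, with no error available. CCND1 and CDK4 are wholly inside S5p and S2p, CDKN1B is wholly inside S5p and 66.9% inside S2p, and 3 genes are at 0%.

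Coverage of the spans, not widened, did not follow gene length alone. CCND1, CDK4 and CDKN1B (13370, 4721 and 5004 bp) were 100% inside S5p and E2F1 (10919 bp) 42.1%, while CDKN1C (2548 bp), CDKN2B (6411 bp) and CDKN2A were at 0% in every list. Among the longer genes, CDK6 was 18.6% inside S5p, MTAP 6.88% and RB1 2.69%. For S2p the values were 100% for CCND1 and CDK4, 66.9% for CDKN1B, 34.6% for E2F1, 7.69% for CDK6 and 2.66% for RB1. 53BP1 covered 12.9% of CDK4, 7.18% of CCND1, 0.999% of CDKN1B and 0.155% of RB1, and no base of CDK6 or E2F1, whose 53BP1 regions lay outside the span. Widths can depend on read depth, so these percentages are compared within a list only.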

How the data were processed

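The series has 4 MCF10A samples, 1 library each, grouped by their titles: input, 53BP1 and the S5p and S2p forms of Pol II. The values used are rows of region lists deposited by the authors, with a fold enrichment (a ratio over background), a −log10 p-value, a −log10 q-value and the offset of the summit. In the authors' deposited lists, 100% of scores were within 1 of 10 times the −log10 q-value. Per the submitters' processing notes, positions are on hg19 and base calling used bcl2fastq 2.20.0.422. Read depth, aligner, peak caller and its control were not given in the sources used here. Weak or missing regions may therefore reflect depth.

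Rows outside chromosomes 1 to 22 and X were left out (1, 2 and 1 rows). Positions are 1-based. A region overlapping a widened span by 1 bp or more was counted, and only once in totals. Percentiles are ranks of fold within a list. All 10 genes are named in the text, and members and lists were chosen with earlier results of these data known. Neighbours and most strands came from RefSeq GRCh38 tables (10 of 10 names matched), the strands of CCND1 and CDKN1C from textbook knowledge, and no position was converted. Promoter rows matched 8 of 10 genes, that of RB1 not at the start of its span. Other G1 genes and exons were not analysed here for want of an hg19 annotation. On simulated lists, 20 of 20 runs recovered the counts, overlaps and stretches built in. Alternatives concerned widening, a −log10 q-value of 5, the overlap asked for, ranking and the start window. Python 3.11.15 ran pandas 2.3.3, numpy 2.4.6, matplotlib 3.10.9 and scipy 1.17.1.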

Additional observations from a re-analysis of the deposited data

How the results depend on the processing

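Of 74 alternative values for 25 results, 58 were taken as unchanged and 16 as moved. Unchanged meant counts within 1.5 times, shares within their interval, and coverage and stretches only if identical. Without widening, 5 of 10 53BP1 regions were left. Keeping only a −log10 q-value from 5 upward left 5 53BP1, 34 S5p and 20 S2p regions. With 50% of the region to be covered, 0% of S5p and 2.94% of S2p regions met 53BP1, and 11.8% of S2p summits lay in a 53BP1 region. The median widths were 561 bp for 53BP1, 970 bp for S5p and 1098 bp for S2p. Coverage of the 10 spans was 0.351% for 53BP1, 14.7% for S5p and 8.80% for S2p. It was 0.218%, 10.4% and 7.45% under the q-value limit, and 1.19%, 16.6% and 12.4% over widened spans. Ranked by −log10 q-value, 1 gene in place of 3 had 53BP1 above the 80th percentile (the cause was not tested). Under the q-value limit, with fewer regions, the stretch at 9p21 was 5331932 bp for 53BP1 and 2261347 bp for S2p. Asking for the summit inside the widened span, an alternative chosen after seeing the data, left 3, 7 and 5 genes above the 80th percentile for 53BP1, S5p and S2p. No paired analysis was possible because there is 1 library per ChIP. Since depth is unknown, a gene without a region cannot be given an upper limit.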
